A study of Homo sapiens with 12 samples.

Results

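The estrogen receptor gene and 9 genes long used as readouts of its activity were followed through 12 RNA-seq libraries of Ishikawa cells, an established human line of endometrial adenocarcinoma. The 10 genes were chosen by name: ESR1, PGR, GREB1, IGFBP4, CA12, STC2, CTSD, XBP1, PRSS23 and OLFM1, out of 45320 genes in the count files. They are established markers of estrogen action, named with earlier results of these data known. Cells of one arm carried a short hairpin against ARID1A (shARID1A), the gene of a large SWI/SNF subunit that contacts DNA while the complex moves nucleosomes, and cells of the other carried a control hairpin (shNC). Each arm received 10 nM estradiol (E2) with 100 nM fulvestrant, 10 nM E2, or DMSO, for 8 h. All groups share a hormone-poor background, since the serum was charcoal-stripped and the medium free of phenol red. Each of the 6 groups had 2 libraries. The labels give neither the culture each library came from nor the number of hairpins or lines per arm, so an effect of ARID1A cannot be told apart from any other difference between the lines. In the labels the zeros of the fulvestrant dose are letters, and it was read as 100 nM.

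Estradiol binds the estrogen receptor alpha, the product of ESR1, which then binds DNA at estrogen response elements and recruits coactivators to nearby genes. Fulvestrant binds the same receptor, blocks its activity and promotes its degradation. In the endometrium the receptor drives the growth phase of the cycle and induces the progesterone receptor, encoded by PGR. Many of the targets studied here were defined in breast cancer cells, where estradiol raises their RNA within hours.

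Libraries held 28810351 to 38657162 counts, and replicate 2 of shARID1A with E2 was the deepest. Levels are given as CPM, the usual depth-scaled count. The limit that a count of 0 allows, set at 3 counts, came to 0.0776 to 0.104 CPM across libraries, for counting error only. ARID1A itself stood at 53.8 to 61.7 CPM in the 6 shARID1A libraries and 109.9 to 123 CPM in the 6 shNC libraries, with no overlap. Its log2 fold change averaged over treatments was -1.03 with a standard error (SE) of 0.041, and edgeR's quasi-likelihood test with Benjamini-Hochberg adjustment gave an adjusted p of 3.02e-19. Of 10 epithelial marker genes fixed for the label, 8 were in the files, none was at 0 in all libraries and 3 averaged under 1 CPM. KRT8, a keratin, led at a mean of 351 CPM in shARID1A and 589 CPM in shNC. KRT18, also a keratin, followed at 206 and 300.5 CPM in the same order of arms. EPCAM averaged 0.747 and 1.52 CPM in that order, and CDH1, which encodes E-cadherin, 0.211 and 0.273 CPM. CLDN4 averaged 0.145 and 0.169 CPM, and KRT19 0.0725 and 0.0565 CPM. The 8 markers summed to 543 to 580 CPM in shARID1A and 860 to 938 CPM in shNC. This sum, mostly KRT8 and KRT18, moved with the arm, and its part in the results on the arms was not tested. Of 7 stromal markers 5 averaged under 1 CPM, and THY1 was at 0. The list summed to 49.9 to 53.1 CPM in shARID1A and 31.0 to 42.9 CPM in shNC. Most of that sum was COL1A1, at a mean of 47.1 CPM in shARID1A and 31.1 CPM in shNC. PDGFRB went the other way, at 4.32 CPM in shARID1A and 6.32 CPM in shNC. Of the immune markers, PTPRC, CD3E, CD14, CD68 and LYZ together summed to 0.0343 to 0.270 CPM in shARID1A and 0 to 0.769 CPM in shNC, with CD3E at 0 in all libraries. The 4 endothelial markers, led by VWF and with KDR at 0, summed to 0.0541 to 0.270 CPM in shARID1A and 0.0580 to 0.282 CPM in shNC.

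Of the 2 receptor genes, ESR1 was low and PGR was at 0. ESR1 (hg19 chromosome 6, 151977826 to 152450754, plus strand) had 2 and 11 counts in shARID1A with E2 plus fulvestrant, 12 and 24 with E2, and 22 and 21 with DMSO. In shNC it had 16 and 15 counts with E2 plus fulvestrant, 34 and 11 with E2, and 17 and 24 with DMSO. These counts correspond to 0.0686 to 0.727 CPM with a median of 0.516 in shARID1A, and 0.319 to 1.09 CPM with a median of 0.509 in shNC. The lowest library was replicate 1 of shARID1A with E2 plus fulvestrant, which lay under the floor, and the highest was replicate 1 of shNC with E2, so the arms overlapped. PGR (chromosome 11, 100909792 to 100934756, minus strand) had 0 counts in all 12 libraries. The exons counted for PGR add up to 2508 bases, 16.3% of the 15404 exon bases that GENCODE 29 gives the gene, so the zero covers that part of the transcript only. Over the 12 libraries together, a count of 0 allows a level of up to 0.00792 CPM over those exons, from 3 counts in all libraries together.

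**Figure D1:**
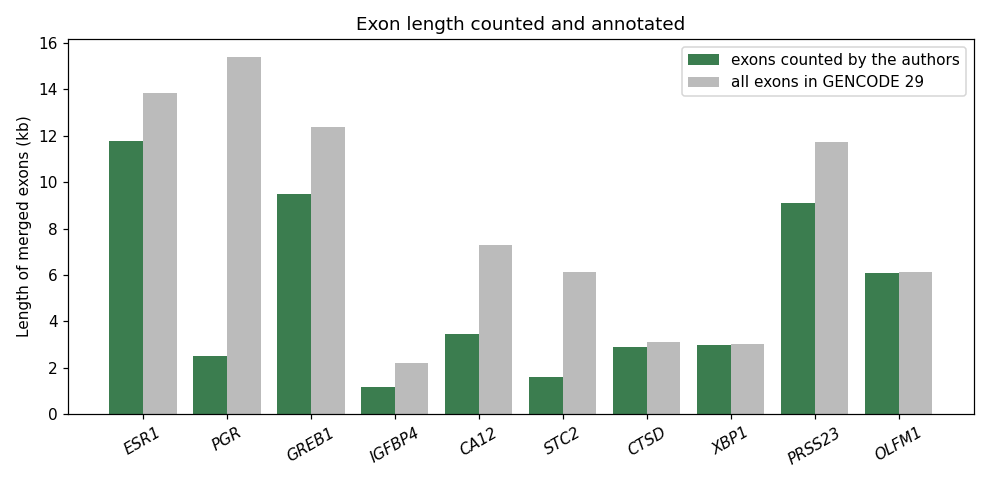
Length of merged exons in kilobases (y axis) for the 10 genes (x axis): green bars, exons over which the authors counted reads; grey bars, all exons in GENCODE 29. The counted part ran from 16.3% for PGR to 99.3% for OLFM1.

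The targets covered a wide range of levels. Per kilobase of counted exon, IGFBP4 was highest at 277 ± 72.1 CPM per kb (SD, n = 12), above 98.8% of the tested genes. XBP1 followed at 93.3 ± 8.25 CPM per kb and CTSD at 69.5 ± 4.81 CPM per kb. OLFM1 at 34.6 ± 3.75 CPM per kb and PRSS23 at 30.3 ± 2.34 CPM per kb overlapped over the 12 libraries, but within each arm OLFM1 was above PRSS23, with 36.8 to 39.7 against 31.6 to 33.3 CPM per kb in shARID1A and 30.4 to 32.1 against 27.3 to 29.1 CPM per kb in shNC. STC2 at 20.6 ± 2.26 CPM per kb and CA12 at 13.4 ± 5.77 CPM per kb overlapped in shNC, with 19.1 to 24.9 CPM per kb for STC2 and 17.7 to 19.96 CPM per kb for CA12, and did not in shARID1A, with 17.4 to 21.4 CPM per kb for STC2 and 7.24 to 8.53 CPM per kb for CA12. GREB1 stood far lower at 0.596 ± 0.0785 CPM per kb, above 20.3% of tested genes, and ESR1 at 0.0468 ± 0.0225 CPM per kb, above 0.946% of them. No other neighbours in this order overlapped over the 12 libraries. The annotation bears on these per-length levels, because counting used 26.2% of the GENCODE 29 exon length of STC2, 47.3% of CA12 and 54.0% of IGFBP4. For CTSD, 1176 of its 2885 counted bases, 40.8%, are shared with exons of other genes, and featureCounts by default gives reads in such stretches to neither gene.

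**Figure D2:**
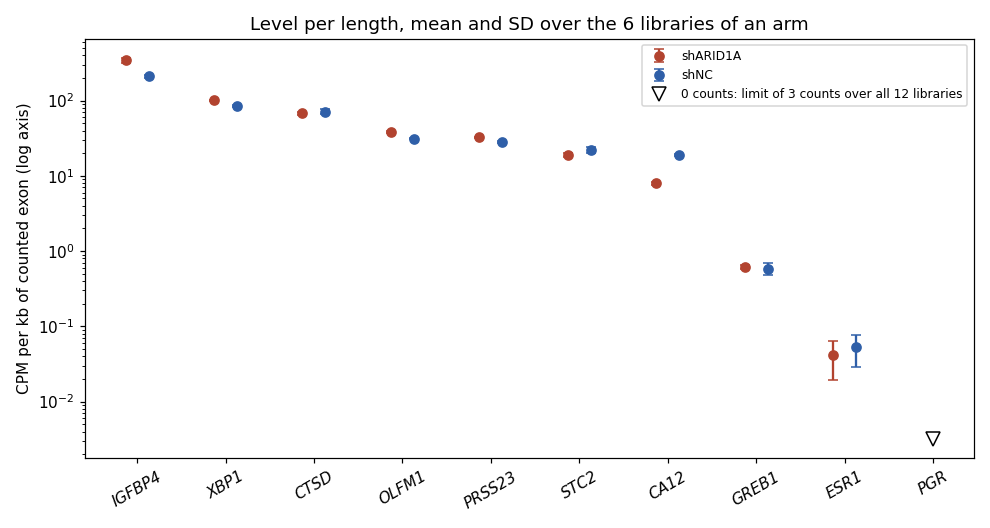
Level of each gene in CPM per kilobase of counted exon on a log axis, as mean ± SD over the 6 libraries of shARID1A and the 6 of shNC; the triangle for PGR marks the limit that a count of 0 over the 12 libraries allows. IGFBP4 averaged 277 CPM per kb over the 12 libraries and ESR1 0.0468 CPM per kb.

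Of the 10 genes, 9 passed the filter on low counts and were tested among 17020 genes; PGR did not pass. Calls require an adjusted p below 0.05. E2 against DMSO led to no call among the 9 genes in either arm. In shARID1A edgeR called 0 of 9, with 1 at an unadjusted p under 0.05 (IGFBP4), and DESeq2 also called 0. In shNC it called 0 of 9, with 1 at an unadjusted p under 0.05 (GREB1), and DESeq2 again called 0. Averaged over the arms it called 0 of 9, with 0 at an unadjusted p under 0.05, and DESeq2 called 0. These calls stand against few calls in the whole table: 0.0235% of tested genes were called for E2 in shARID1A (0.0176% higher), 0.00588% in shNC and 0.00588% averaged over arms. Here and below, the share of all tested genes at an unadjusted p under 0.05 was not counted. Counts of genes at that threshold therefore have no background beside them. The median log2 fold change of the 9 genes for E2 averaged over arms was 0.0098, beside 0.00074 over all tested genes.

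GREB1 (chromosome 2, 11682816 to 11782914, plus strand) encodes a coactivator of the receptor and is a sensitive E2-induced gene in breast cancer cells. In shARID1A it stood at 6.28 and 5.67 CPM with E2 plus fulvestrant, 5.72 and 5.30 CPM with E2, and 5.68 and 6.31 CPM with DMSO. In shNC it stood at 5.11 and 5.71 CPM with E2 plus fulvestrant, 5.52 and 7.25 CPM with E2, and 5.19 and 4.21 CPM with DMSO. In shNC both E2 libraries were above both DMSO libraries, and in shARID1A the 2 treatments overlapped. Here and below, separations of 2 libraries from 2 are described only, and their share over all tested genes was not counted. The log2 fold change for E2 over DMSO was -0.12 in shARID1A with a 95% interval of -0.51 to 0.26, and 0.44 in shNC with an interval of 0.048 to 0.84, which did not pass adjustment over all genes (edgeR adjusted p = 0.9997). Without replicate 2 of shNC with E2, the shNC value was 0.226 and the difference between arms that follows was -0.351. Set against each other, shARID1A minus shNC, the arms' E2 effects differed by -0.57 with an interval of -1.12 to -0.014, also not called (edgeR adjusted p = 0.776). For fulvestrant with E2 over E2 alone, GREB1 gave 0.12 in shARID1A (interval -0.27 to 0.51) and -0.25 in shNC (interval -0.63 to 0.13), the shNC value being -0.0326 without replicate 2 of shNC with E2.

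IGFBP4 (chromosome 17, 38599702 to 38613335, plus strand) encodes a secreted protein that binds insulin-like growth factors. In shARID1A it had 397 and 384 CPM with E2 plus fulvestrant, 411 and 462 CPM with E2, and 385 and 413 CPM with DMSO. In shNC it had 232 and 244 CPM with E2 plus fulvestrant, 250 and 253 CPM with E2, and 264 and 254 CPM with DMSO. Both shARID1A libraries with E2 plus fulvestrant lay below both with E2, as did both in shNC, while E2 and DMSO overlapped in shARID1A and both E2 libraries lay below both DMSO libraries in shNC. The log2 fold change for E2 over DMSO was 0.13 in shARID1A (interval 0.016 to 0.25; edgeR adjusted p = 0.718) and -0.04 in shNC (interval -0.16 to 0.077). For fulvestrant with E2 over E2 it was -0.16 in shARID1A (interval -0.28 to -0.046; edgeR adjusted p = 0.408) and -0.08 in shNC (interval -0.20 to 0.042). None of the 4 values was called. Without replicate 2 of shARID1A with E2, the highest IGFBP4 library, the 2 shARID1A values were 0.0439 and -0.0748. The comparison of E2 with DMSO and that of fulvestrant with E2 share the E2 libraries, so a high or low E2 library moves their values in opposite directions.

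Fulvestrant with E2 against E2 alone likewise led to no call among the 9 genes. In shARID1A edgeR called 0 of 9, with 1 at an unadjusted p under 0.05 (IGFBP4), and in shNC 0 of 9, with 1 at an unadjusted p under 0.05 (CTSD). Averaged over arms it called 0 of 9, with 2 at an unadjusted p under 0.05 (CTSD and IGFBP4), and DESeq2 called 0 in each of these 3 comparisons. Of all tested genes 0.00588% were called in shARID1A, 0.00588% in shNC and 0.0646% averaged over arms. Averaged over arms, 9 of 9 fold changes were below 0, beside 50.6% of all tested genes, with a median log2 fold change of -0.06 for the 9 genes and -0.0025 for all tested genes. That count was 7 without replicate 2 of shARID1A with E2 and 7 without replicate 1 of shNC with E2, so it rests in part on single E2 libraries shared by all 9 values. IGFBP4 gave -0.12 averaged over arms (interval -0.20 to -0.037; edgeR adjusted p = 0.176).

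CTSD (chromosome 11, 1774005 to 1785131, minus strand) encodes the lysosomal protease cathepsin D. In shARID1A it had 192 and 184 CPM with E2 plus fulvestrant and 194 and 209.5 CPM with E2, and in shNC 204 and 182 CPM with E2 plus fulvestrant and 231 and 203 CPM with E2. The treatments overlapped in shNC and did not in shARID1A. Averaged over arms the log2 fold change was -0.14 (interval -0.24 to -0.040; edgeR adjusted p = 0.181), with -0.10 in shARID1A and -0.17 in shNC, and the average was -0.0907 without replicate 1 of shNC with E2. For E2 over DMSO, ESR1 gave -0.44 in shARID1A (interval -1.595 to 0.71) and 0.06 in shNC (interval -1.04 to 1.17), and the shNC value was -1.03 without replicate 1 of shNC with E2. For fulvestrant with E2 over E2, ESR1 gave -1.24 in shARID1A (interval -2.79 to 0.32; edgeR adjusted p = 0.604) and -0.47 in shNC (interval -1.66 to 0.71). The ESR1 value in shARID1A was -0.50 without replicate 1 of E2 plus fulvestrant, the library with 2 counts, and -2.87 without replicate 2 of that group. The ESR1 value in shNC was 0.617 without replicate 1 of E2 and -1.14 without replicate 2 of E2.

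For E2 over DMSO in shARID1A the 6 genes other than ESR1, GREB1 and IGFBP4 ran from -0.04 for CA12 to 0.08 for STC2 on the log2 scale, and in shNC from -0.13 for STC2 to 0.07 for CTSD. For fulvestrant with E2 over E2, the 5 genes left after ESR1, GREB1, IGFBP4 and CTSD ran from -0.13 for STC2 to -0.02 for PRSS23 in shARID1A, and from -0.09 for STC2 to 0.0063 for PRSS23 in shNC. For the 7 genes other than ESR1 and GREB1, no 95% interval reached beyond a 1.22-fold change with E2 in shARID1A, 1.252-fold with E2 in shNC, 1.26-fold with fulvestrant in shARID1A or 1.24-fold with fulvestrant in shNC. The intervals of ESR1 and GREB1 were wider, and ESR1 had 2 to 34 counts per library.

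Whether the hormone responses differed between arms was tested directly. For the E2 effect, shARID1A minus shNC, edgeR called 0 of 9, with 2 at an unadjusted p under 0.05 (GREB1 and IGFBP4), and DESeq2 called 0; 0.0294% of tested genes were called. IGFBP4 gave 0.17 (interval 0.0082 to 0.34; edgeR adjusted p = 0.776), and was 0.0859 without replicate 2 of shARID1A with E2. ESR1 gave -0.50, which ran from -1.17 to 0.587 when 1 of the shNC libraries with E2 was left out. STC2 gave 0.21, or 0.0869 without replicate 2 of shARID1A with E2, and the other 5 ran from -0.04 for CTSD to 0.12 for OLFM1. For the fulvestrant effect edgeR called 0 of 9, with 0 at an unadjusted p under 0.05, and DESeq2 called 0; the 9 values ran from -0.76 for ESR1 to 0.37 for GREB1, and 0.0118% of tested genes were called.

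**Figure D3:**
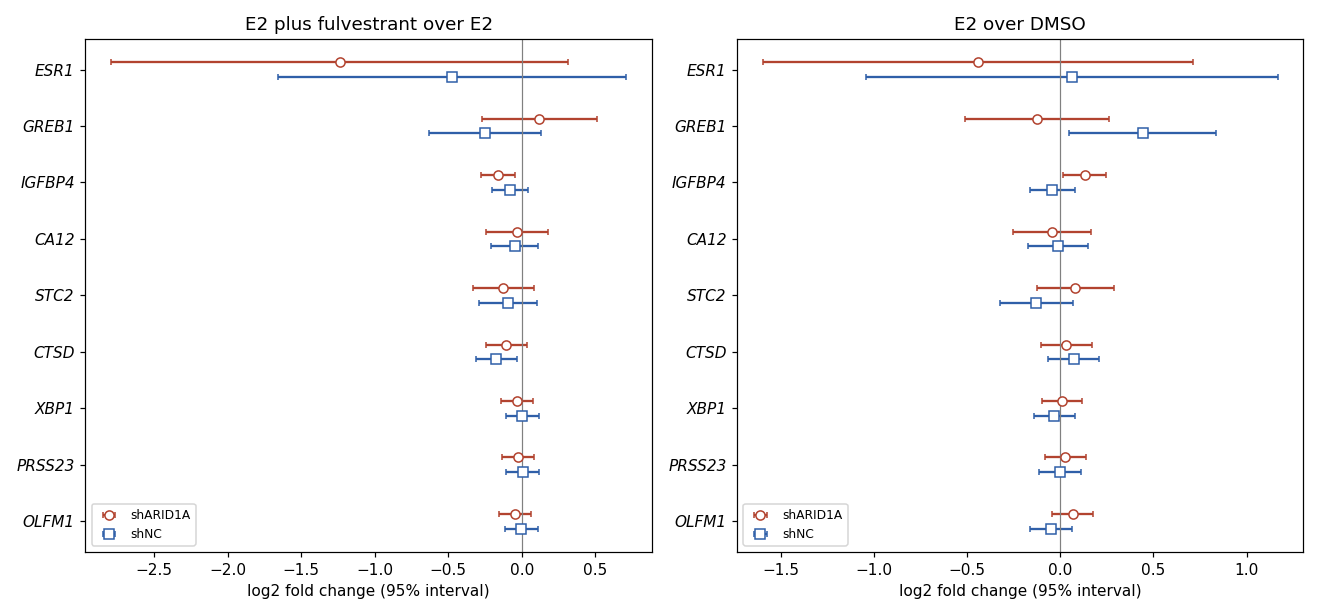
Log2 fold change (x axis) with 95% interval for the 9 tested genes (y axis), for E2 plus fulvestrant over E2 and for E2 over DMSO, in shARID1A and in shNC; open symbols mark values that were not called. All symbols are open, and the widest intervals belong to ESR1.

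Several targets differed between the arms. Averaged over treatments, shARID1A against shNC called 6 of the 9 genes, 4 higher and 2 lower, while 43.1% of all tested genes were called (20.3% higher and 22.8% lower). The median SE was 0.039 for the 9 genes and 0.086 for all tested genes, so smaller changes could be called among the 9. By treatment, 6 of 9 were called with DMSO, where 19.2% of tested genes were called (9.70% higher and 9.50% lower), 5 of 9 with E2 (27.2%) and 5 of 9 with E2 plus fulvestrant (24.2%). In 5 of the 9 genes the 6 shARID1A libraries did not overlap the 6 shNC libraries, beside 22.0% of all tested genes. In these bulk libraries, fewer cells with a high level and less RNA per cell cannot be told apart.

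CA12 (chromosome 15, 63616906 to 63674045, minus strand) encodes a carbonic anhydrase of the cell surface that helps to regulate pH. It fell in shARID1A under every treatment. It had 26.1 and 27.3 CPM with E2 plus fulvestrant, 25.0 and 29.5 CPM with E2 and 27.95 and 28.5 CPM with DMSO in shARID1A, against 66.7 and 61.0, 64.5 and 67.3, and 69.0 and 63.8 CPM in shNC in the same order of treatments. All shARID1A libraries were below all shNC libraries. The arms averaged 27.4 ± 1.63 CPM in shARID1A and 65.4 ± 2.86 CPM in shNC (SD, n = 6 each), 0.420-fold. The log2 fold change averaged over treatments was -1.253 (SE 0.052; interval -1.36 to -1.15; edgeR adjusted p = 6.90e-19), with -1.26 in E2 plus fulvestrant, -1.27 in E2 and -1.24 in DMSO.

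IGFBP4 moved the other way and rose in shARID1A under every treatment. Its 6 libraries there, given above, were all above the 6 of shNC, with arm means of 408 ± 29.01 CPM in shARID1A and 249 ± 10.6 CPM in shNC (SD, n = 6 each), 1.64-fold. The log2 fold change averaged over treatments was 0.71 (SE 0.034; interval 0.64 to 0.78; edgeR adjusted p = 1.78e-17), with 0.71 in E2 plus fulvestrant, 0.80 in E2 and 0.62 in DMSO. Arms took 98.8% of the variance of log2 CPM of CA12 over the 12 libraries, treatments within arms 0.218% and replicates 0.989%. For IGFBP4 these shares were 95.7% for arms, 2.76% for treatments and 1.55% for replicates. A split by degrees of freedom alone would give 9.09%, 36.4% and 54.5%. Arms took 96.0% for OLFM1, 94.3% for XBP1, 92.4% for PRSS23 and 51.0% for STC2. They took 13.4% for CTSD, 8.6% for ESR1 and 7.5% for GREB1.

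Because these 2 genes had the largest called changes, the 250 bases before the annotated start are shown for each, from RefSeq on GRCh38.p14, with capitals marking matches to the motifs searched. The CA12 window is chr15:63381847-63382096 on the minus strand and the IGFBP4 window chr17:40443200-40443449 on the plus strand.
CA12: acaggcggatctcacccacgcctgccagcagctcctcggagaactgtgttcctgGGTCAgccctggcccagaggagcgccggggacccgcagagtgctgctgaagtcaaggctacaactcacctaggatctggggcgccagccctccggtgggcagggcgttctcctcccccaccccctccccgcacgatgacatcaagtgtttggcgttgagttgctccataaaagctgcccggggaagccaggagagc
IGFBP4: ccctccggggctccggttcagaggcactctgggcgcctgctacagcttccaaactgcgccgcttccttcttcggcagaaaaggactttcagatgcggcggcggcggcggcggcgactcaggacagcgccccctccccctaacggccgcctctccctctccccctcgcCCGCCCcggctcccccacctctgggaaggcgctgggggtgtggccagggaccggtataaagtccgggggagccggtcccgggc
The motifs, searched on both strands, were the full estrogen response element (GGTCA, 3 bases of any kind, TGACC), the 5-base GGTCA alone, the AP-1 motif TGANTCA and the GC box GGGCGG. The full element contains GGTCA, so its matches count for both. CA12 held 1 single GGTCA, starting 196 bases before the start, and IGFBP4 held 1 GC box read as CCGCCC, 83 bases before it. Among 35116 windows of this length in the same table, 0.0399% held a full element, 32.6% GGTCA or its reverse complement, 6.57% an AP-1 motif and 42.6% a GC box. Windows were found for 9 of the 10 genes, all but GREB1, and none of them held a full element.

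A further 3 targets rose in shARID1A by smaller amounts. OLFM1 (chromosome 9, 137967268 to 138013025, plus strand), which encodes the secreted glycoprotein olfactomedin 1, had 224 to 241 CPM in shARID1A with a median of 231, against 185 to 195 CPM in shNC with a median of 188. Its log2 fold change averaged over treatments was 0.29 (SE 0.032; edgeR adjusted p = 3.73e-09), and it was called under each treatment, at 0.30 in E2 plus fulvestrant, 0.35 in E2 and 0.23 in DMSO. XBP1 (chromosome 22, 29190545 to 29196557, minus strand), a transcription factor of the unfolded protein response, had 298 to 307 CPM in shARID1A with a median of 302, against 246 to 266 CPM in shNC with a median of 258. Its log2 fold change was 0.24 (SE 0.031; edgeR adjusted p = 1.55e-07), called under each treatment. Neither gene's arms overlapped.

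PRSS23 (chromosome 11, 86511563 to 86663952, plus strand), which encodes a secreted serine protease, had 288 to 303 CPM in shARID1A with a median of 295, against 249 to 265 CPM in shNC with a median of 256. Here too the arms did not overlap. The log2 fold change averaged over treatments was 0.21 (SE 0.031; edgeR adjusted p = 2.34e-06), 1.15-fold. PRSS23 was called under each treatment, but 2 of these calls rest on single libraries. In DMSO the value of 0.20 (edgeR adjusted p = 0.0086) was 0.165 without replicate 2 of shNC (edgeR adjusted p = 0.112) and 0.187 without replicate 2 of shARID1A (0.0865). In E2 plus fulvestrant the value of 0.19 (edgeR adjusted p = 0.0081) was 0.154 without replicate 2 of shNC (edgeR adjusted p = 0.136) and 0.164 without replicate 1 of shARID1A (0.115).

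STC2 (chromosome 5, 172745181 to 172755450, minus strand) encodes stanniocalcin 2, a secreted glycoprotein. With DMSO it had 29.96 and 30.8 CPM in shARID1A, against 39.9 and 36.8 CPM in shNC, without overlap. With E2 it had 29.5 and 34.4 CPM in shARID1A, against 36.7 and 33.7 CPM in shNC, and with E2 plus fulvestrant 28 and 30.8 CPM in shARID1A, against 30.7 and 35.2 CPM in shNC. These treatments overlapped between arms. STC2 fell with the average over treatments, by a log2 fold change of -0.21 (SE 0.058; edgeR adjusted p = 0.0032), and in DMSO at -0.34 (edgeR adjusted p = 0.0136), but was not called in E2 at -0.13 or in E2 plus fulvestrant at -0.16. The DMSO call was lost without replicate 1 of shNC (-0.275, edgeR adjusted p = 0.142), replicate 1 of shARID1A (-0.321, 0.102) or replicate 2 of shARID1A (-0.358, 0.0676).

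The remaining 3 tested genes were not called between arms. CTSD averaged 196 ± 8.42 CPM in shARID1A and 206 ± 17.2 CPM in shNC (SD, n = 6 each), with a log2 fold change of -0.07 (interval -0.15 to 0.0099; edgeR adjusted p = 0.156). By treatment CTSD gave -0.04 in E2 plus fulvestrant, -0.11 in E2 and -0.07 in DMSO. Without replicate 2 of shNC with E2 the average was called at -0.101 (edgeR adjusted p = 0.0444). GREB1 averaged 5.83 ± 0.392 CPM in shARID1A and 5.50 ± 1.00 CPM in shNC, with a log2 fold change of 0.09 (interval -0.14 to 0.31; edgeR adjusted p = 0.567). By treatment GREB1 gave 0.14 in E2 plus fulvestrant, -0.23 in E2 and 0.34 in DMSO, where both shARID1A libraries were above both shNC libraries (edgeR adjusted p = 0.263). The E2 value was -0.00786 without replicate 2 of shNC with E2. ESR1 averaged 0.485 ± 0.257 CPM in shARID1A and 0.618 ± 0.278 CPM in shNC, with a log2 fold change of -0.46 (interval -1.22 to 0.30; edgeR adjusted p = 0.343). Single libraries moved that average: it was -0.0951 when the E2 library replicate 1 of shNC was left out, and -1 when replicate 2 of shARID1A with E2 plus fulvestrant was. By treatment ESR1 gave -1.14 in E2 plus fulvestrant, where both shARID1A libraries were below both shNC libraries (edgeR adjusted p = 0.332), -0.37 in E2 and 0.13 in DMSO. The ESR1 interval of the average allows both a lower and a slightly higher level. No change of the receptor's RNA was called, and a change within that interval is not excluded.

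**Figure D4:**
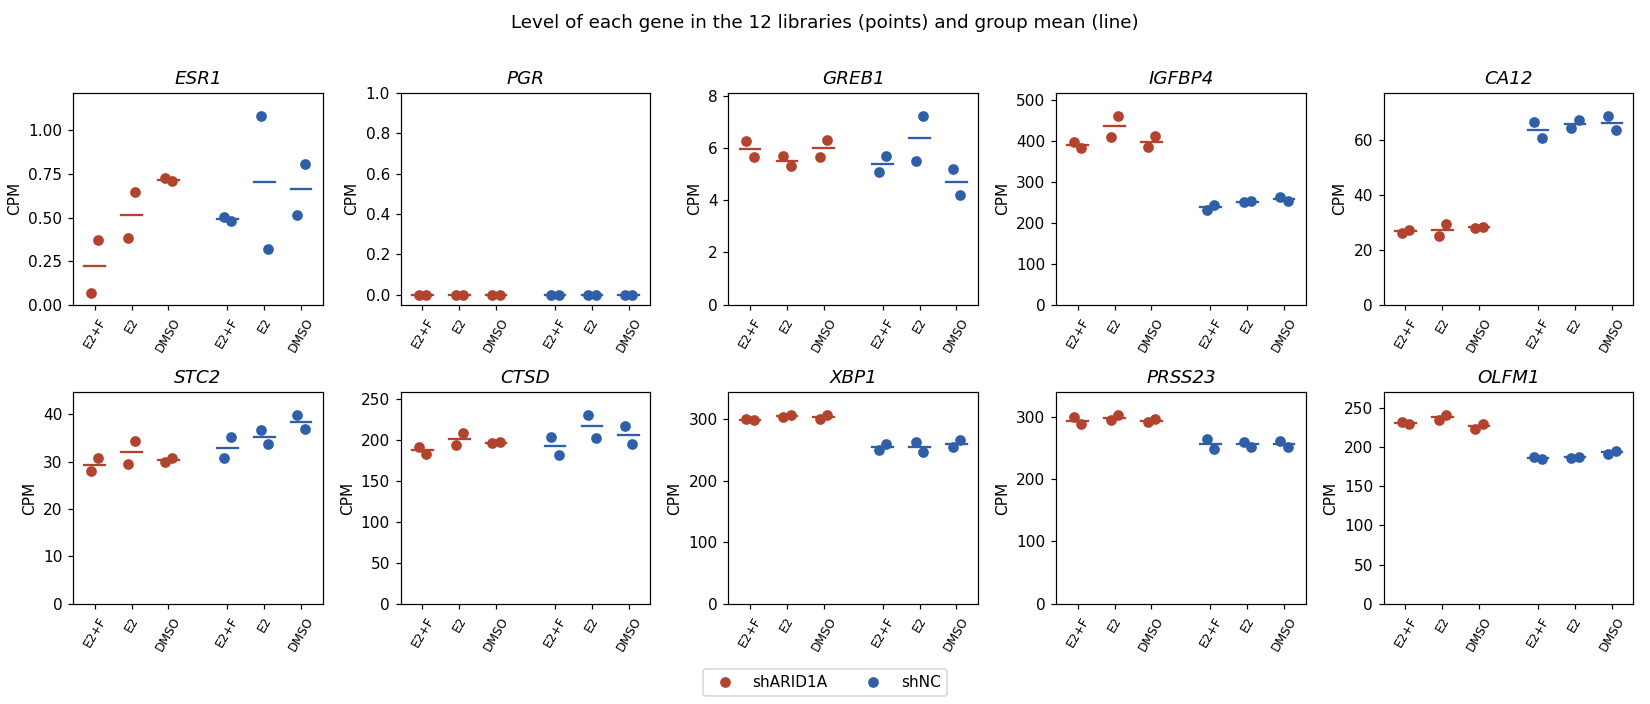
CPM (y axis, linear) of each of the 10 genes in every library, grouped by arm and treatment (x axis); points are libraries, lines are means of the 2 libraries of a group and E2+F is E2 plus fulvestrant. CA12 is lower in all 6 shARID1A libraries and IGFBP4, XBP1, PRSS23 and OLFM1 are higher in all 6, while PGR is at 0 throughout.

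**Figure D5:**
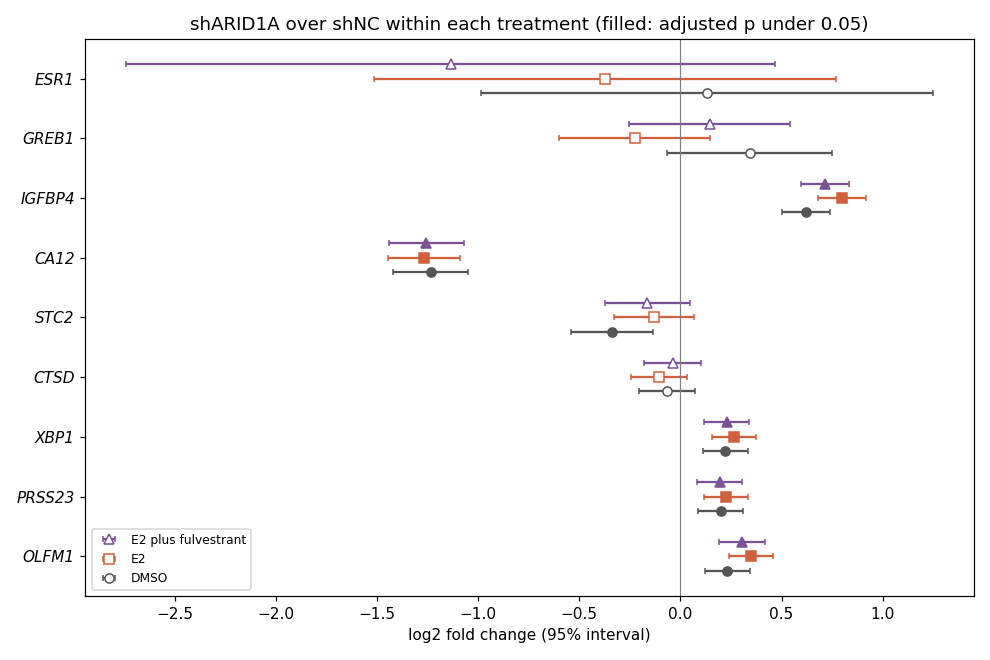
Log2 fold change of shARID1A over shNC (x axis) with 95% interval for the 9 tested genes (y axis) under each treatment; filled symbols mark called values. CA12 lies between -1.27 and -1.24 and IGFBP4 between 0.62 and 0.80 in all treatments.

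The genes whose pattern was most like IGFBP4 and CA12 were sought among 9530 genes, by the root mean square difference of centred log2 CPM over the 12 libraries. Nearest to IGFBP4 were NPR1, which encodes a natriuretic peptide receptor, at 0.053, SEPT5, a septin, at 0.061 and MFSD12, a lysosomal transporter, at 0.063. Nearest to CA12 were CLU, which encodes the chaperone clusterin, at 0.074, NOTCH3, a Notch receptor, at 0.079 and TGM2, a transglutaminase, at 0.084. The 7 other tested genes had too little spread or too low a level for this search.

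Other genes of the pathway were counted from a list of 50 further estrogen targets, of which 43 were in the files and 29 were tested. For E2 averaged over arms edgeR called 0 of 29, with 1 at an unadjusted p under 0.05 (ABCA3), and for fulvestrant 0 of 29, with 2 (ABCA3 and SLC7A5). Averaged over treatments, 10 of the 29 were higher in shARID1A and 8 lower, beside 20.3% higher and 22.8% lower among all tested genes, with a median log2 fold change of -0.0020 beside -0.022 over all tested genes. PAPSS2, a sulfate-activating enzyme, averaged 114 ± 4.12 CPM in shARID1A and 77.0 ± 5.27 CPM in shNC (SD, n = 6 each), which is 0.57 on the log2 scale (edgeR adjusted p = 1.52e-12). ALPP, placental alkaline phosphatase, averaged 115 ± 8.57 CPM in shARID1A and 68.6 ± 12.1 CPM in shNC (0.75; edgeR adjusted p = 5.41e-11), and its reads can be split with near-identical paralogs. RBBP8, a DNA end-resection factor, averaged 33.0 ± 2.19 CPM in shARID1A and 47.0 ± 5.51 CPM in shNC (-0.51; edgeR adjusted p = 7.33e-08). WISP2, a secreted matricellular protein, averaged 407 ± 21.7 CPM in shARID1A and 335 ± 14.7 CPM in shNC (0.28; edgeR adjusted p = 8.20e-08).

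Partners of the receptor were counted from a list of 18 genes, of which 14 were in the files and 13 were tested. For E2 averaged over arms edgeR called 0 of 13, with 1 at an unadjusted p under 0.05 (PELP1), and for fulvestrant averaged over arms 0 of 13, with 5 (NCOA2, PELP1, MED1, CARM1 and NCOA3). The share of all tested genes at that unadjusted threshold was not counted, so the 5 cannot be set against it. Within arms it called 0 of 13 as well, with 0 for E2 and 1 for fulvestrant at an unadjusted p under 0.05 in shARID1A, and 1 and 3 in shNC, and DESeq2 called 0 in each. Averaged over treatments 2 were higher in shARID1A, the methyltransferase CARM1 at 0.17 and the transcription factor TFAP2C at 0.22, and 5 were lower, beside the 20.3% and 22.8% of all tested genes. NCOR1, a corepressor, gave -0.19, CREBBP, an acetyltransferase, -0.18 and MED1, a Mediator subunit, -0.14. FOXA1, a pioneer factor that opens chromatin for the receptor in breast cancer cells, averaged 1.10 ± 0.450 CPM in shARID1A and 2.13 ± 0.431 CPM in shNC (SD, n = 6 each), which is -0.91 on the log2 scale (edgeR adjusted p = 0.0014). GATA3 gave -1.54 from levels of 0.122 and 0.367 CPM in shARID1A and shNC, close to the floor. These 7 were named after their values were seen.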

How the data were processed

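Per the file headers, the authors summed exon reads to gene counts with featureCounts 2.0.0, and the deposited counts are not normalized. The headers show no option for strand, read pairs or several alignments. Alignment with Subread 2.0.0 to hg19 after trimming with Trim Galore and cutadapt comes from the submitters' processing notes. Whether reads were single or paired is not given in the sources used here. Without strand, overlapping antisense genes cannot be told apart. All 12 libraries were used, as 6 groups of 2 from the labels. Replicates of a group differed by more than counting error (chi-square per degree of freedom 5.19 to 7.97 over 12461 genes), and p-values measure only the spread between libraries, which may be technical.

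The fit used edgeR 4.0.16 under R 4.3.3 (filterByExpr by group, TMM factors of 0.957 to 1.03, a mean per group, glmQLFit with legacy = FALSE, glmQLFTest, two-sided). A total of 12 contrasts were tested, with Benjamini-Hochberg adjustment over 17020 genes within each and a threshold of 0.05. DESeq2 1.42.0, RLE scaling, no filter, a replicate block and leaving out each library were run as alternatives. The fitting was tested on simulated data. CPM uses the TMM-scaled library total, and CPM per kb divides by the counted exon length. Intervals are at 95% and use the SE of the fit. GENCODE 29 is on GRCh38, so only lengths were compared. RefSeq windows on GRCh38.p14 were matched by symbol.

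Of the 10 genes, the 9 tested are covered in the contrasts by a value or a range, called or not. Of further estrogen targets, the 4 called with the smallest adjusted p are named. Likeness was sought for genes of the 10 with a mean of at least 5 CPM and an SD of centred log2 CPM above 0.3, and the 3 nearest genes are named. Promoter windows are printed for the called genes of the 10 with the largest change between arms, since none was called in a hormone contrast. The 10 genes, lists and tests were chosen with earlier results of these data known. The level of 1 immune marker is not reported here, and the immune sum leaves it out.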

Additional observations from a re-analysis of the deposited data

How the results depend on the processing

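No hormone contrast called any of the 9 tested genes under any alternative run, and between arms 4 to 6 were called in DMSO, 5 in E2, 4 to 5 in E2 plus fulvestrant and 6 to 7 averaged over treatments. Counts over all genes in the hormone contrasts were small and unstable, and the cause was not tested. Without the filter on low counts they were 37 for E2 in shARID1A, 12 for E2 in shNC, 8 for E2 averaged over arms, 41 for fulvestrant in shARID1A, 19 for fulvestrant in shNC, 256 for fulvestrant averaged over arms, 41 for the difference of the E2 effect and 9 for the difference of the fulvestrant effect. DESeq2 called 6 for fulvestrant in shARID1A, 2 in shNC, 66 averaged over arms, 14 for the difference of the E2 effect and 1 for that of fulvestrant. RLE scaling called 1 for E2 in shARID1A. Leaving out a library gave 0 to 5 for E2 in shARID1A, 1 to 4 in shNC, 0 to 4 averaged over arms, 1 to 27 for fulvestrant in shARID1A, 1 to 5 in shNC, 0 to 222 averaged over arms, 2 to 17 and 1 to 4 for the differences of the E2 and fulvestrant effects, and, between arms, 2005 to 3348 in DMSO, 2748 to 4651 in E2 and 2310 to 4181 in E2 plus fulvestrant.

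Leaving out a library turned the sign of 41 of the 86 fold changes of the 9 genes that were not called, and turned or moved by over 1.5 times 81 of them, whereas 0 of the 22 called ones did either. Called values are large against their SE, so this contrast follows in part from the calling itself. As given above, some leave-outs lost the calls of STC2 in DMSO and of PRSS23 in DMSO and E2 plus fulvestrant. Of the values printed singly, signs turned for ESR1 with E2 in shNC (-1.03 to 0.727), with fulvestrant in shNC (-1.14 to 0.617), in the difference of the E2 effect (-1.17 to 0.587) and between arms in DMSO (-0.168 to 0.467) and E2 (-1.04 to 0.719), and for CTSD between arms in DMSO (-0.145 to 0.016) and E2 plus fulvestrant (-0.114 to 0.0642). ESR1 had 2 to 34 counts per library and the widest intervals.

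The labels number the replicates 1 and 2 in each group. In each group, the deviation of replicate 1 from the group mean of log2 CPM was taken for 10338 genes. Across genes, these deviations correlated from -0.221 to 0.275 over 15 pairs of groups, with 7 pairs over 0.1. The numbers were therefore not taken to pair the libraries. With the replicate block, 4 genes were called for E2 in shNC, 40 for fulvestrant averaged over arms and 12 for the difference of the E2 effect, and it moved no other count by over 1.5 times and no call of the 9 genes.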
